A study of Mus musculus with 9 samples.

Results

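The 10 genes described here encode neuronal RNA-binding proteins that regulate splicing: Rbfox1, Rbfox2 and Rbfox3, Nova1 and Nova2, Elavl2, Elavl3 and Elavl4, and Celf4 and Celf5. They were chosen by name from 4 gene families and make up 10 of the 37620 genes in the deposited counts. All 10 passed the filter on low counts and were among the 15069 genes tested. RNA bound to tagged ribosomes was sequenced from parvalbumin-expressing inhibitory neurons (PV INs) of hippocampal CA3/CA2. All mice carried PV-Cre and Rpl22 HA/HA, were 2 months old and were of either sex, so that cells with Cre activity at the parvalbumin gene carried an HA tag on a ribosomal protein. A lentivirus expressing Ablim3 shRNA (shRNA, 4 samples) or a non-target shRNA (shNT, 5 samples) was injected into the dentate gyrus (DG), and tissue was taken 2 weeks later. Each sample pooled 6 mice, so the spread between samples is a spread between pools. The comparison asks how ribosome-associated RNA in these neurons differed after knockdown in DG of Ablim3, which the study describes as a brake on mossy fiber contacts with PV INs.

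Splicing regulators bind short motifs in pre-mRNA and, depending on where they bind relative to an exon, favor its inclusion or its skipping. Rbfox proteins recognize GCAUG through an RNA recognition motif (RRM), Nova proteins bind clusters of CA flanked by pyrimidines through KH domains, neuronal Elavl (Hu) proteins bind U-rich RNA and also act on mRNA stability and translation, and Celf proteins bind GU-rich RNA. Rbfox3 protein is the antigen of the neuronal marker NeuN. Counts per gene give how much of a regulator's mRNA was in the pulldown of tagged ribosomes and cannot show the inclusion of any exon. Markers of other cell types were counted too, as given below, and no sample is of input RNA. The part of a regulator's counts that came from tagged cells is therefore not known.

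The paralogs are close in sequence, so a stretch that encodes the RNA-binding part is shown for 3 families to let the reader see how far reads of one gene can be told from those of the next. The stretches are coding exons of equal length in the mm9 genome, printed in the direction of transcription, and capitals mark the positions at which the paralogs of a family differ. The Rbfox exon of 54 bases lies in the RRM, at chr16:7285571-7285624 on the plus strand for Rbfox1, chr15:76944035-76944088 on the minus strand for Rbfox2 and chr11:118365034-118365087 on the minus strand for Rbfox3.
Rbfox1: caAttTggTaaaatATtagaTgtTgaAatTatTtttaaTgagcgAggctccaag
Rbfox2: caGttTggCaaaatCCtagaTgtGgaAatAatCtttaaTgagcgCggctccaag
Rbfox3: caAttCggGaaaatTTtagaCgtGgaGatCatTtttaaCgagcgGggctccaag
The 3 Rbfox genes differ at 12 of the 54 positions, 11 of them at the third base of a codon, and the longest run shared by a pair is 11 bases. The Nova exon of 144 bases encodes part of the first KH domain and lies at chr12:47917873-47918016 on the minus strand for Nova1 and at chr7:19527565-19527708 on the plus strand for Nova2.
Nova1: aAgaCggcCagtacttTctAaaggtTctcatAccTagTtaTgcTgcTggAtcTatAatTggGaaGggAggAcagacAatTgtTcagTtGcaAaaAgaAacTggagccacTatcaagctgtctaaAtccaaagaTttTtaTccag
Nova2: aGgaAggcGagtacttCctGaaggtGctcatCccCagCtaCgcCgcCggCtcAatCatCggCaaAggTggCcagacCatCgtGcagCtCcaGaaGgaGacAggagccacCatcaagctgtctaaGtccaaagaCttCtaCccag
Nova1 and Nova2 differ at 34 of these positions, 32 of them at the third base of a codon. The Elavl exon of 104 bases lies in the first RRM, at chr4:90947905-90948008 for Elavl2, chr9:21840756-21840859 for Elavl3 and chr4:109899150-109899253 for Elavl4, all on the minus strand.
Elavl2: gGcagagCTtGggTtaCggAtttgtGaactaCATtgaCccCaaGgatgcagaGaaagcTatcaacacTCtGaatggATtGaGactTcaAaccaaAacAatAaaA
Elavl3: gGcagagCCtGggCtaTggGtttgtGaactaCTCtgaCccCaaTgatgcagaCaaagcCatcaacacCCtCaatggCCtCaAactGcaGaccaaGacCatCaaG
Elavl4: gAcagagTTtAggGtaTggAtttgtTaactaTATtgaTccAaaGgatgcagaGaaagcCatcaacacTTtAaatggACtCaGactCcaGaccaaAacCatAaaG
The Elavl genes differ at 29 of the 104 positions, 23 of them at the third base of a codon, and no pair shares a run of more than 17 bases here. The reads were 50 bases long, and every 50-base window of the exons of Rbfox1, Rbfox2, Rbfox3, Nova1, Elavl2 and Elavl4 occurs at a single place in mm9. For Nova2, Elavl3, Celf4 and Celf5 this holds for 99.7%, 99.5%, 99.6% and 99.5% of windows, and only 2 windows of Nova2 and 3 of Elavl3 also occur in another of the 10 genes.

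In mm9 the genes span chr16:6809315-7412572 (Rbfox1), chr15:76909420-77137483 (Rbfox2), chr11:118351074-118772911 (Rbfox3), chr12:47795504-47919762 (Nova1), chr7:19510698-19551031 (Nova2), chr4:90917454-91066675 (Elavl2), chr9:21819449-21856467 (Elavl3), chr4:109876327-110024514 (Elavl4), chr18:25636133-25912484 (Celf4) and chr10:80921972-80945454 (Celf5). Most are long, from 23.5 kb for Celf5 to 603 kb for Rbfox1, and their median length was 149 kb against 22.8 kb for all genes tested. Nova2 shares 29.4% of its exon bases with the antisense noncoding gene Gm17370 and Celf5 shares 8.14% with the antisense gene Gm16105. Counting ignored strand, and both antisense genes are listed in the deposited counts. A read over shared bases may therefore have been left out as ambiguous and counted for neither gene. Ambiguous reads were 1.36% to 1.78% of uniquely aligned reads. Gm17370 had 0 counts in every sample and Gm16105 had from 0 to 2, which does not show whether antisense RNA was present. Levels per kb of exon, used below, may be too low for Nova2 and Celf5, as may the share of Nova2 among the Nova genes.

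Gene counts ran from 19680352 to 34578837 per shNT sample and from 18281719 to 30421093 per shRNA sample, and the 10 genes had between 329 and 10654 counts in each sample. Ablim3, the target of the shRNA, averaged 16.9 ± 5.16 CPM (counts scaled to library size, SD, n = 5) in shNT and 18.5 ± 3.42 CPM (n = 4) in shRNA samples. Its values were 22.6, 12.1, 22.2, 15.4 and 12.3 CPM in shNT samples (replicates 1 to 5, the order used throughout) and 21.7, 19.5, 19.4 and 13.7 CPM in shRNA samples (replicates 1 to 4), and the groups overlapped (log2 fold change 0.13, FDR = 0.701, edgeR). The virus was placed in DG and the RNA was drawn from tagged cells of CA3/CA2, so this level is not a check of the knockdown or of the labels. The share of uniquely aligned reads outside exons was 9.76% to 18.6% in shNT and 12.4% to 27.2% in shRNA samples, highest in shRNA replicate 4 at 27.2%, followed by shRNA replicate 1 at 19.8% and shNT replicate 2 at 18.6%. The 11 PV IN markers, Pvalb and Gad1 among them, summed to 9254 to 14246 CPM in shNT and 4453 to 10797 CPM in shRNA samples, lowest in shRNA replicate 4. Of the 11, 0 had a fitted change above 0, 0 were called and none was at 0 throughout. Their log2 fold changes ran from -0.92 for Pvalb to -0.25, with a median of -0.37. Pvalb averaged 998 ± 287 CPM (SD) in shNT and 526 ± 163 CPM in shRNA samples, and the groups overlapped (FDR = 0.0678, edgeR). The 9 markers of CA3 and CA2 pyramidal neurons summed to between 591 and 1462 CPM in shNT and between 1528 and 1916 CPM in shRNA samples, without overlap, and 1 of them was called higher, against 1.74% of all tested genes. The 5 markers of oligodendrocyte precursors also did not overlap, at 44.1 to 78.1 CPM and 83.5 to 120.5 CPM in sum, with 2 called higher. The 6 oligodendrocyte markers, all with a fitted change above 0, summed to 759 to 2373 CPM and 1442 to 3019 CPM, and the groups overlapped. The 4 families are also expressed in excitatory neurons. The 8 astrocyte markers summed to between 509.7 and 947 CPM in shNT and between 821 and 4410 CPM in shRNA samples, highest in shRNA replicate 4, and the 5 nuclear-retained noncoding RNAs summed to between 1660 and 15015 CPM and between 3621 and 18976 CPM. In such pools, fewer cells of a type and less RNA per cell cannot be told apart.

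All 10 regulators were detected in every sample, at levels that spanned a wide range. Levels of different genes are compared as RPKM, the CPM divided by the kilobases of exon. In shNT samples (n = 5), Celf4 and Rbfox1 were the most abundant, at 78.4 ± 10.8 and 70.6 ± 4.18 RPKM (SD), above 94.1% and 93.4% of tested genes. The Hu genes followed, with Elavl4 at 38.7 ± 4.56, Elavl2 at 38.0 ± 5.96 and Elavl3 at 27.2 ± 3.04 RPKM, and then Rbfox3 at 21.5 ± 3.23 RPKM. A lower tier held Rbfox2 at 7.64 ± 1.06, Nova2 at 7.35 ± 0.66, Celf5 at 3.61 ± 0.94 and Nova1 at 2.79 ± 0.28 RPKM. The median of tested genes was 4.62 RPKM. Neighbors in this order were separated without overlap of their sample ranges at 3 steps, from Rbfox1 to Elavl4, from Rbfox3 to Rbfox2 and from Nova2 to Celf5. At the other steps the ranges of neighbors overlapped. Celf4, for example, was above Rbfox1 in 4 of the 5 shNT samples, and the order within samples was not tested. In shRNA samples (n = 4) Celf4 was at 95.6 ± 9.88 and Rbfox1 at 62.8 ± 10.5 RPKM, and here their ranges did not overlap. Elavl2 and Elavl4 changed places in the mean order, as did Elavl3 and Rbfox3, and in both pairs the ranges overlapped in both groups.

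**Figure D1:**
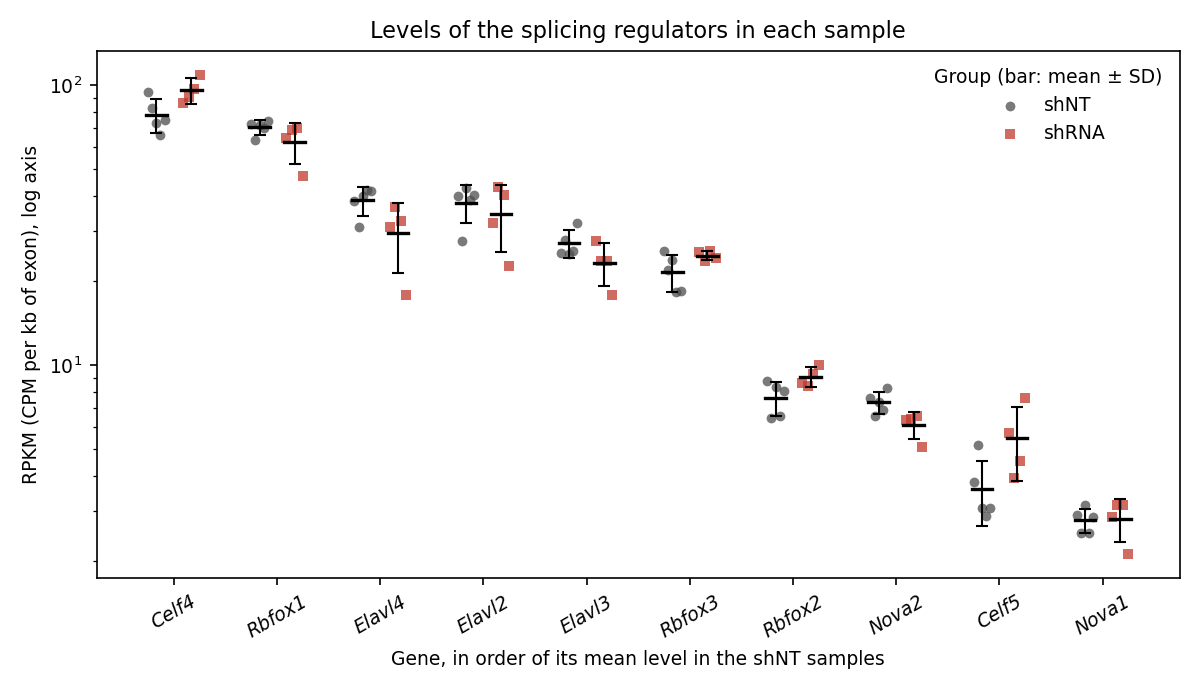
Level of each regulator by sample, in RPKM on a log axis, with the genes in order of their mean level in shNT samples. Points are samples (5 shNT, 4 shRNA) and bars are mean ± SD. Celf4 and Rbfox1 lie highest, and Celf5 and Nova1 lie lowest in both groups.

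None of the 10 genes passed the threshold of FDR under 0.05 and 1.5-fold (quasi-likelihood test of edgeR, adjusted by the Benjamini-Hochberg method), which 1.74% of all tested genes passed as higher in shRNA samples and 0.0133% as lower. The share of all genes called depended strongly on the fit, from 0 genes in 12 of the 26 alternatives to 15.3% higher and 4.10% lower with limma voom. The number of the 10 genes called was 0 in the 14 alternatives that called any gene. At an unadjusted p under 0.05, 1 of the 10 was higher (Celf5) and 0 were lower, where 20.7% and 13.4% of all tested genes were. The fitted log2 fold change was above 0 for 5 of the 10 genes, against 57.9% of all genes, and the median was -0.06 against 0.11. For 6 of the 10 the 95% interval lay wholly within a 1.5-fold change in either direction, and for Elavl2, Elavl4, Celf4 and Celf5 it did not. The intervals of Elavl2, Elavl4 and Celf4 held both 0 and a 1.5-fold change, and that of Celf5 held a 1.5-fold change and not 0.

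**Figure D2:**
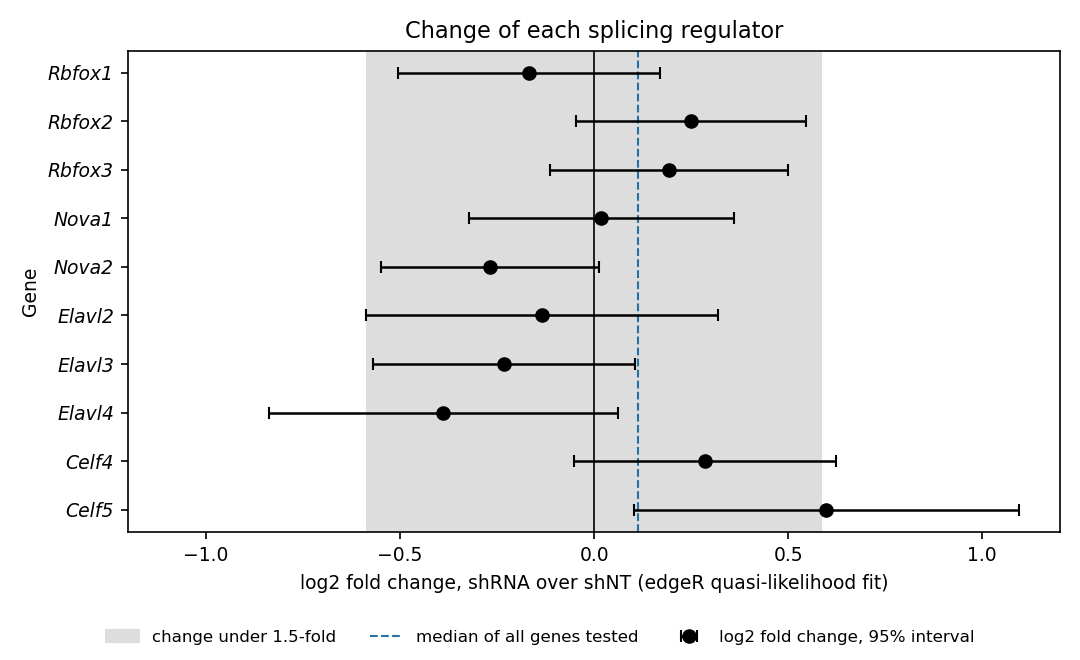
Log2 fold change of each regulator, shRNA over shNT, with its 95% interval from the edgeR fit over 9 samples. The gray band spans changes under 1.5-fold and the dashed line is the median of all tested genes (0.11). Intervals of all genes but Celf5 include 0, and that of Celf5 runs from 0.10 to 1.10.

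Rbfox1, the most abundant Rbfox gene, was at 307, 269, 304, 297 and 315 CPM in shNT samples and at 273, 292, 297 and 201 CPM in shRNA samples. The groups overlapped and shRNA replicate 4 stood lowest of the 9. The log2 fold change was -0.17 ± 0.15 (SE, FDR = 0.443, edgeR). Rbfox2, which is also expressed outside the nervous system, was at 64.8, 47.9, 61.8, 48.6 and 59.9 CPM in shNT and at 63.7, 62.5, 69.0 and 74.2 CPM in shRNA samples. Here shRNA replicate 4 was the highest of the 9, and the groups overlapped through shNT replicate 1. The log2 fold change was 0.25 ± 0.14 (FDR = 0.206, edgeR). Rbfox3 was at 148, 127, 138, 106 and 107 CPM in shNT and at 147, 137, 148 and 140.3 CPM in shRNA samples. The shRNA values lay within the range of the shNT values, and the log2 fold change was 0.19 ± 0.14 (FDR = 0.332, edgeR). With limma voom and sample quality weights, Rbfox2 (FDR = 0.0435) and Rbfox3 (FDR = 0.0407) fell under an FDR of 0.05 but stayed under 1.5-fold, with log2 fold changes of 0.29 and 0.30. Within YTa31, a set of 6 samples described below, they were 0.13 and 0.03. Without each sample in turn, Rbfox2 ran from 0.13 (without shNT replicate 4) to 0.30 and Rbfox3 from 0.05 (without shNT replicate 5) to 0.26.

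The balance between Rbfox1 and Rbfox2 differed between the groups before adjustment. Per exon length, Rbfox1 exceeded Rbfox2 by 8.30, 9.85, 8.62, 10.7 and 9.22 times in shNT and by 7.50, 8.20, 7.52 and 4.74 times in shRNA samples. Every shRNA sample was below every shNT sample, and shRNA replicate 4 was the lowest. Pairs of genes outside the 8 compared here were not screened, so how often the ratio of 2 genes separates this way is not known. The difference in the mean log2 ratio was -0.44 (p = 0.00794 by an exact two-sided permutation test, the smallest p that 5 against 4 samples allow, and 0.0635 after Benjamini-Hochberg adjustment over the 8 pairs). Without shRNA replicate 4 the difference was -0.27 (p = 0.0357, exact permutation). Sample names fall into 2 sets, YTa31 with 3 samples of each group and YTa32 with 2 shNT samples and shRNA replicate 4, and the labels do not say what the sets are. Within YTa31 the difference in the Rbfox1 to Rbfox2 ratio was -0.20 (p = 0.10 by the exact permutation test, the smallest that 3 against 3 allows), and with 1 shRNA sample YTa32 allows no test. The Rbfox1 to Rbfox3 ratio was 2.84, 2.92, 3.04, 3.86 and 4.06 in shNT and 2.55, 2.94, 2.75 and 1.97 in shRNA samples. The groups overlapped, with shNT replicates 4 and 5 highest (difference in log2 -0.39, exact permutation p = 0.0476, adjusted 0.0952, and -0.10 within YTa31). The Rbfox2 to Rbfox3 ratio differed by 0.05 on the log2 scale (exact permutation p = 0.690). Of the summed RPKM of the 3 genes, Rbfox1 made up 70.8% ± 2.83 (SD, n = 5) in shNT and 64.7% ± 4.53 (n = 4) in shRNA samples, and the sum itself was 99.7 ± 6.22 and 96.5 ± 10.3 RPKM.

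**Figure D3:**
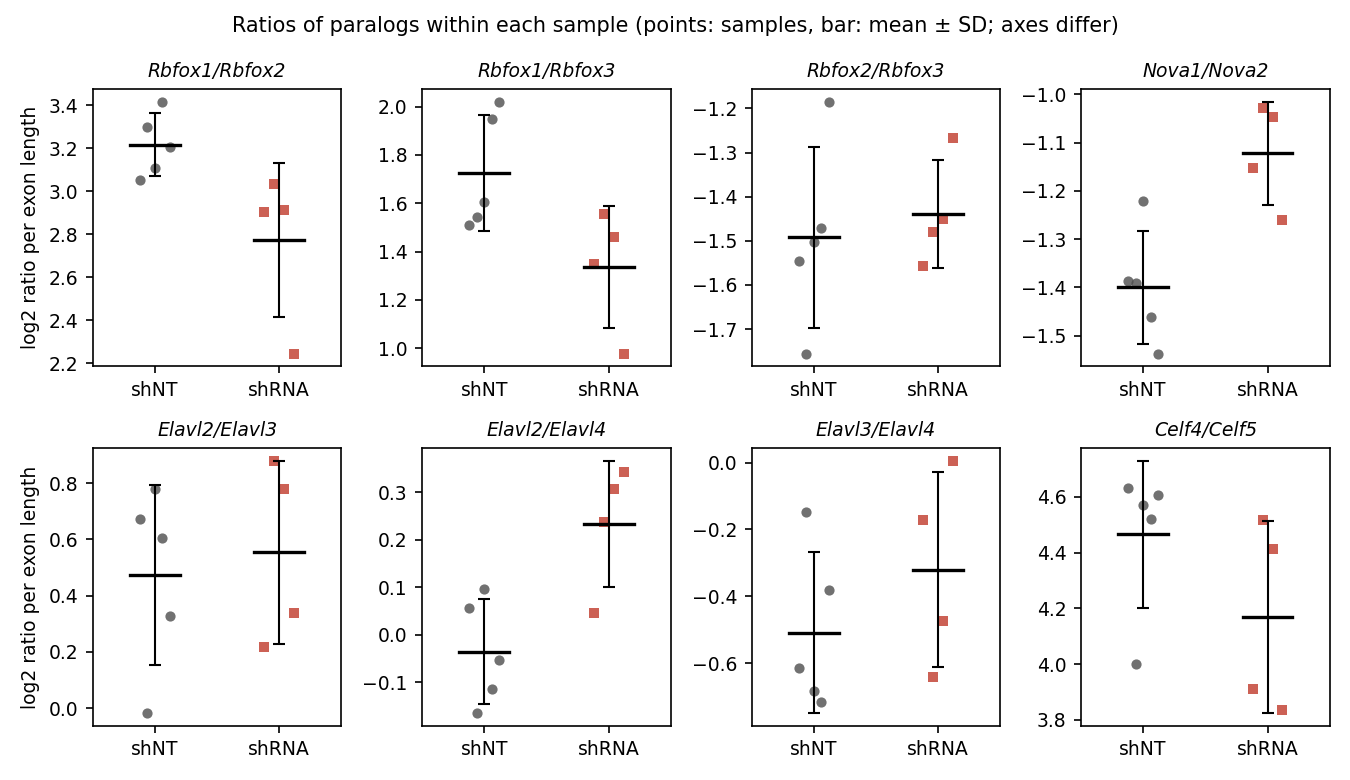
Log2 ratio of paralogs within each sample, per exon length, for the 8 pairs compared. Points are samples, bars are mean ± SD, and the y axes differ between panels and do not start at 0. The groups are fully separated for Rbfox1 over Rbfox2 and overlap for the other pairs.

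Nova1, the paralog best known from hindbrain and spinal cord, was the least abundant gene here and had the fitted change nearest to 0. It was at 20.4, 17.6, 22.1, 17.6 and 19.98 CPM in shNT and at 20.04, 22.1, 22.2 and 14.8 CPM in shRNA samples. The groups overlapped, with shRNA replicate 4 below the other 8 samples, and the log2 fold change was 0.02 ± 0.16 (FDR = 0.942, edgeR). Nova2, the paralog that predominates in the forebrain, was at 68.9, 59.4, 66.2, 62.2 and 74.7 CPM in shNT and at 57.4, 58.0, 59.1 and 45.8 CPM in shRNA samples. It was the only one of the 10 genes whose groups did not overlap, with every shRNA sample below every shNT sample, as for 6.68% of all tested genes. None lay wholly above, against 8.97% of tested genes. The gap was narrow, from 59.1 to 59.4 CPM, and the log2 fold change was -0.27 ± 0.13 (FDR = 0.163, edgeR), -0.22 without shNT replicate 2 and shRNA replicate 4 and -0.19 within YTa31. It was -0.15 with the share of reads outside exons included as a covariate, -0.44 with the trend over gene length removed (FDR = 0.0890, edgeR) and -0.69 with the trend over exon length removed (FDR = 0.0911, edgeR). Nova2 held 72.5% ± 1.63 (SD, n = 5) of the summed Nova RPKM in shNT and 68.5% ± 1.59 (n = 4) in shRNA samples. The log2 ratio of Nova1 to Nova2 was -1.39, -1.39, -1.22, -1.46 and -1.54 in shNT and -1.15, -1.03, -1.05 and -1.26 in shRNA samples. The ranges overlapped at shNT replicate 3 and shRNA replicate 4 (difference 0.28, exact two-sided permutation p = 0.0238, adjusted 0.0952, and 0.26 within YTa31).

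The 3 neuronal Hu genes had fitted changes below 0 and none passed the test. Elavl4 (HuD), known for stabilizing mRNAs of growing neurites, was at 207, 167, 216, 227 and 226 CPM in shNT and at 168, 198, 176 and 95.7 CPM in shRNA samples. The groups overlapped, since shNT replicate 2 lay among the shRNA samples and shRNA replicate 4 stood far below the rest. The log2 fold change was -0.39 ± 0.20 (FDR = 0.198, edgeR), with a 95% interval from -0.84 to 0.06, and it was -0.22 without shRNA replicate 4 and -0.16 within YTa31. It was -0.09 with the same covariate, -0.74 with the gene length trend removed (FDR = 0.0929, edgeR) and -0.63 with the exon length trend removed. Elavl2 (HuB) was at 219, 151, 234, 212 and 220.3 CPM in shNT and at 176, 236, 220.2 and 123 CPM in shRNA samples. Values of shNT replicate 2, shRNA replicate 1 and shRNA replicate 4 lay below the others, and the log2 fold change was -0.13 ± 0.21 (FDR = 0.659, edgeR). Elavl3 (HuC) was at 126.45, 141, 125.6, 129 and 162 CPM in shNT and at 139, 118, 118 and 89.7 CPM in shRNA samples. The groups overlapped through shRNA replicate 1, and the log2 fold change was -0.23 ± 0.15 (FDR = 0.293, edgeR). Summed over the 3 genes, levels were 104 ± 10.4 RPKM (SD, n = 5) in shNT and 87.3 ± 20.1 RPKM (n = 4) in shRNA samples, with shRNA replicate 4 at 58.2 RPKM.

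Elavl2 and Elavl4 were near equal per exon length in shNT samples, with ratios of 1.04, 0.892, 1.07, 0.925 and 0.964, and Elavl2 was ahead in shRNA samples, with ratios of 1.03, 1.18, 1.24 and 1.27. The groups overlapped at shRNA replicate 1 (difference in log2 0.27, exact permutation p = 0.0397, adjusted 0.0952, and 0.20 within YTa31). The log2 ratio differed by 0.08 for Elavl2 to Elavl3 (exact permutation p = 0.690) and by 0.19 for Elavl3 to Elavl4 (exact permutation p = 0.325). Of the 8 pairs, 0 passed an adjusted p of 0.05.

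Celf4, a brain-enriched member of its family that binds many synaptic mRNAs, was at 379, 331, 293, 266 and 299.9 CPM in shNT and at 345, 361, 388 and 435 CPM in shRNA samples. The upper 2 values were both shRNA samples, and shNT replicate 1 lay among the shRNA values. The log2 fold change was 0.29 ± 0.15 (FDR = 0.207, edgeR), 0.09 within YTa31, and 0.36 with limma voom (FDR = 0.0165, under 1.5-fold). Celf5 had the largest fitted change of the 10, at 25.5, 34.4, 20.5, 19.3 and 20.5 CPM in shNT and 38.2, 26.3, 30.4 and 50.8 CPM in shRNA samples. The highest 3 were shRNA replicate 4, shRNA replicate 1 and shNT replicate 2, which also had the largest shares of reads outside exons. With that share as a covariate, the log2 fold change of Celf5 was 0.20. The share itself differed between the groups, with a median of 11.0% in shNT and 16.2% in shRNA samples. This fit therefore cannot tell the share and the group apart, and the part of the share in the levels of Celf5 was not tested. In the main comparison it was 0.60 ± 0.23, or 1.51-fold (FDR = 0.0985, edgeR), where 12.7% of tested genes were higher at an FDR under 0.1 and 1.5-fold. It was 0.37 without shRNA replicate 4, 0.57 without shRNA replicate 4 and shNT replicate 2 and 0.20 within YTa31. Without each sample in turn it ran from 0.37 to 0.76, at an FDR from 0.0676 to 0.308 (edgeR). With limma voom it was 0.49 (FDR = 0.0172, under 1.5-fold). Celf4 exceeded Celf5 per exon length by 24.8, 16.0, 23.8, 22.9 and 24.3 times in shNT and by 15.04, 22.9, 21.3 and 14.3 times in shRNA samples. The 3 lowest ratios belonged to the same 3 samples, and the groups overlapped (difference in log2 -0.30, exact permutation p = 0.175, adjusted 0.279).

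Most of these genes had an extreme value in shRNA replicate 4. There, 9 of the 10 genes were at the highest or lowest level of the 9 samples, against 62.7% of all tested genes. Rbfox2, Celf4 and Celf5 were highest there and Rbfox1, Nova1, Nova2, Elavl2, Elavl3 and Elavl4 were lowest. On the log2 scale relative to the shNT mean, its values ran from -1.11 for Elavl4 to 1.11 for Celf5, and those of the other 3 shRNA samples ran from -0.30 for Elavl4 to 0.70 for Celf5. In shNT replicate 2, 1 gene (Rbfox2, the lowest of the 9) was at an extreme, against 25.7% of all tested genes. As given above, shRNA replicate 4 had the lowest summed PV IN markers and the highest summed astrocyte markers, and the part of these levels and of the pyramidal neuron and oligodendrocyte lineage markers in the results was not tested. Across the shNT samples the coefficient of variation ran from 5.93% for Rbfox1 to 26.0% for Celf5, where the median of 9495 genes with at least 10 CPM was 17.9%, and across the shRNA samples it ran from 3.83% for Rbfox3 to 29.6% for Celf5.

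**Figure D4:**
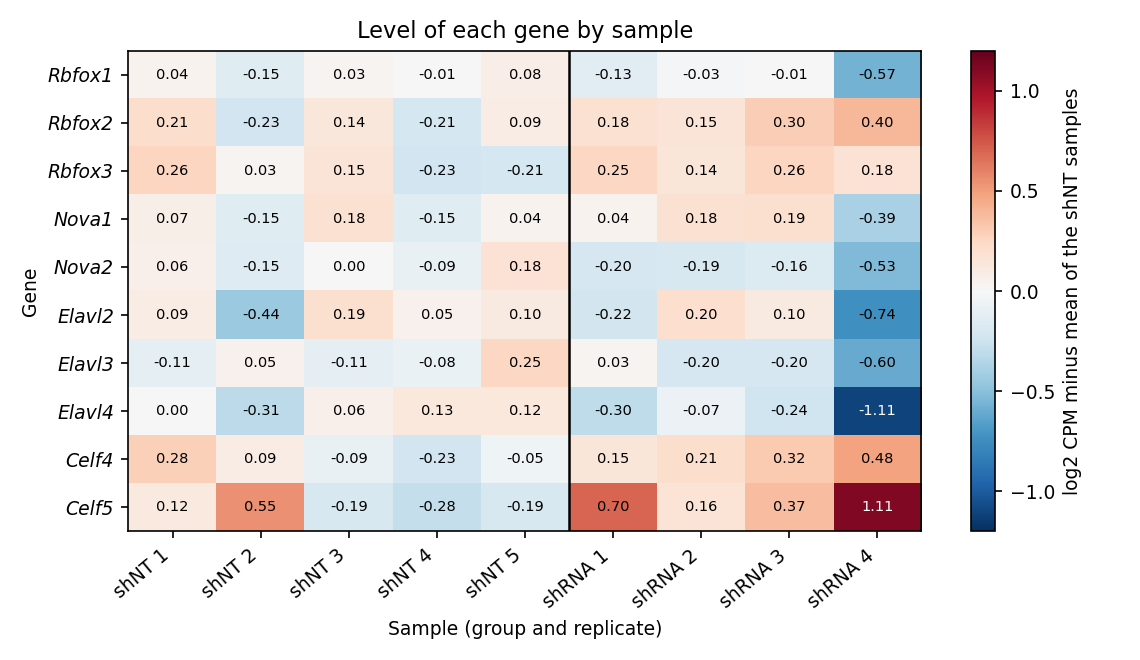
Level of each regulator in each sample, as log2 CPM minus the mean of the 5 shNT samples. Columns are samples, with shNT left of the vertical line and shRNA right of it, and red is higher and blue lower. The column of shRNA replicate 4 holds the strongest colors, from -1.11 for Elavl4 to 1.11 for Celf5.

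For 9 of the regulators the tested gene with the most similar profile is given over the 9 samples, by the root mean square difference of log2 levels centered on each gene's mean, among 9494 genes with at least 10 CPM. Rbfox1 was nearest to Mtrf1 (0.034), Nova1 to Srp72 (0.055), Nova2 to Dnajb14 (0.047), Elavl2 to Napb (0.034), Elavl3 to Dnajc2 (0.065) and Elavl4 to Hrh3 (0.045). These 6 profiles share the low value of shRNA replicate 4. Rbfox3 was nearest to Wdr13 (0.058), Celf4 to Tbl1xr1 (0.070) and Celf5 to Cacna1d (0.075). Among the regulators themselves, Rbfox1 and Nova2 were the closest pair, at 0.082, and Celf5 was the farthest from any other, at 0.303 from Celf4. All profiles come from the same 9 libraries.

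Of the other splicing regulators in 5 lists, 1 of the 72 tested was called, as higher in shRNA samples, or 1.39% against 1.74% of all tested genes. The remaining family members Elavl1, Celf1, Celf2, Celf3 and Celf6 were all tested and none was called, with a median log2 fold change of 0.17 and 5 of 5 above 0. Celf1, which is expressed in many tissues, was at 111, 96.0, 111, 82.4 and 82.0 CPM in shNT and 148, 134, 136 and 156 CPM in shRNA samples. Its groups did not overlap, with every shRNA sample above every shNT sample, as in 1 of these 5 genes and in 8.97% of all tested genes. Its log2 fold change of 0.57 ± 0.14 stood at an FDR of 0.0558 (edgeR). Of 26 other tissue-regulated splicing factors, 23 were tested, 1 was called higher and 0 lower, with a median of 0.11. The called gene, Raver2, encodes a partner of the polypyrimidine tract-binding proteins and was at 15.4, 17.3, 12.1, 7.47 and 8.63 CPM in shNT and at 33.1, 23.1, 27.5 and 29.0 CPM in shRNA samples. All 4 shRNA samples were above all shNT samples (log2 fold change 1.21 ± 0.24, FDR = 0.0414, edgeR), and the call was lost without shNT replicate 3, 4 or 5 or without shRNA replicate 1, 3 or 4. In 5 of these 6 fits, all but that without shRNA replicate 4, 0 of all tested genes were called. Tia1, a regulator that binds U-rich RNA beside 5′ splice sites, had a log2 fold change of 1.22 ± 0.33 (FDR = 0.0630, edgeR), with 146 and 161 CPM in shRNA replicates 1 and 4 and 86.6 CPM in shNT replicate 2 as the highest values of their groups. Srrm4, an activator of neuronal microexons, was at 44.6 to 62.2 CPM in shNT and 37.5 to 43.4 CPM in shRNA samples, without overlap (log2 fold change -0.34 ± 0.13, FDR = 0.103, edgeR). Rbms3 had a log2 fold change of -0.55 ± 0.20 (FDR = 0.0912, edgeR).

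Rbfox proteins act in the large assembly of splicing regulators (LASR), and its 8 other subunits were all tested with 0 called and a median log2 fold change of -0.05. Ddx5, an RNA helicase, had a log2 fold change of 0.42 (FDR = 0.105, edgeR), while the values for Hnrnpc and Ilf2 were -0.50 and -0.33. Of 21 hnRNP genes, which encode abundant nuclear RNA-binding proteins, 0 were called, 8 had a fitted change above 0 and the median was -0.07. The 2 extremes in each direction were Hnrnpdl and Hnrnpul1, both at 0.35, and Hnrnpa0 and Pcbp2, at -0.58 and -0.49. Hnrnpa0 was at 28.6 to 47.8 CPM in shNT and 13.7 to 28.2 CPM in shRNA samples, without overlap (FDR = 0.107, edgeR). The shRNA samples all lay below the shNT samples for 2 of the 21 hnRNP genes and all above for 1, against 6.68% and 8.97% of all tested genes. Of 15 SR protein genes, which mostly promote exon inclusion, 0 were called, 10 were above 0 and the median was 0.18, from -0.27 for Srsf3 to 0.77 for Srrm1 among those at 10 CPM or more.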

How the data were processed

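The data were deposited as one table per sample of counts per gene. Per the study's methods, the authors used STAR to align 50-base reads to the transcriptome of mm9 and used HTSeq 0.6.0 without regard to strand to count reads per gene. The deposited values are whole-number counts whose totals differ between samples, with separate lines for reads that HTSeq left out, alignments at more than 1 place among them. The annotation they used is not given in the sources used here, and names, positions and exon lengths come from GENCODE M1 for mm9, which named 37205 of 37620 identifiers. Reads outside exons, which name no gene, were 9.76% to 27.2% of uniquely aligned reads and were left out of library sizes.

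A gene was kept if any sample reached 1 CPM (15069 genes, with 22551 removed). After TMM normalization, edgeR 4.0.16 (quasi-likelihood test, R 4.3.3) was run with condition as the only term, and genes were called at an FDR under 0.05 (Benjamini-Hochberg) and 1.5-fold. The biological coefficient of variation was 0.303. Log2 fold changes are given ± SE with 95% t intervals. RPKM is CPM per kb of merged exons, bases shared with another gene included. Ratios of paralogs were log2 transformed and compared by exact two-sided permutation of the sample labels, with adjustment over 8 pairs. Gene counts were 18281719 or more per sample, with at least 329 counts for each regulator. Counting error relative to the level is largest for Nova1, at 329 to 643 counts, and the part of counting error in the spread was not tested. The labels do not say more of the samples than that each is a separate pool. Alternatives used limma 3.58.1 and DESeq2 1.42.0, and scripts were tested on simulated data. The main fit did not pair samples by number, and deviations of same-numbered samples correlated from -0.64 to 0.49.

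The 10 genes and all lists were chosen with earlier results of these data known. Named from the other lists were the 2 genes with the largest log2 fold change in each direction at a mean of at least 10 CPM and any called gene. Of the genes that these rules and the search for similar profiles name, 2 are not reported here. The covariate for reads outside exons and the fit without shNT replicate 2 and shRNA replicate 4 were added after seeing the data. The exon sequences are from the mm9 genome, and a coding exon of equal length in each paralog was taken; Celf exons were not used here.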

Additional observations from a re-analysis of the deposited data

Results flagged for a closer look

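Among the 36 groups of 4 or 5 values screened (levels of the 10 genes and the 8 ratios in each condition), 4 held a sample far from the others of its group by Dixon's test, where chance gives 1.8. Nova2 was at 45.8 CPM in shRNA replicate 4, and the other 3 shRNA samples were at 57.4 to 59.1 CPM. In the same sample the log2 ratio of Rbfox1 to Rbfox2 was 2.24, and it was 2.91 to 3.04 in the other 3. Elavl2 was at 151 CPM in shNT replicate 2, and the other 4 shNT samples were at 212 to 234 CPM. The log2 ratio of Celf4 to Celf5 was 4.00 in shNT replicate 2 and 4.52 to 4.63 in the other 4. These 2 samples have the largest share of reads outside exons in their groups, at 27.2% and 18.6%, and its part in these values was not tested.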

How the results depend on the processing

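In 12 of the 26 alternatives 0 of all tested genes were called (library size only, upper quartile, filterByExpr, YTa31 alone, either length trend removed, the covariate, and the fits that left out shNT replicate 3, shNT replicate 4, shNT replicate 5, shRNA replicate 1 and shRNA replicate 3), so a count of 0 there says nothing of the 10 genes. In the other 14, with 29 (replicate block) to 2919 (limma voom) genes called, 0 of the 10 were called. Against 262 higher and 2 lower in all, there were 1688 and 542 with the likelihood ratio test, 1659 and 534 with the exact test, 1532 and 833 with DESeq2, 2301 and 618 with limma voom, and 1007 and 410 without shNT replicate 1. Of the log2 fold changes of the 10 genes under an alternative, 237 kept their direction and their side of the threshold and 23 changed sign. Nova1, at 0.02, was -0.026 with DESeq2, -0.025 with DESeq2's size factors, -0.020 without a filter on low counts, -0.043 with filterByExpr, -0.033 with YTa31 or YTa32 as a block, -0.31 with the gene length trend removed and -0.31 with the exon length trend removed, and from -0.12 to 0.12 without each sample in turn. Elavl2 was 0.029 with limma voom, 0.039 within YTa31, 0.20 with reads outside exons as a covariate, and from -0.28 to 0.014 without each sample in turn. With the gene length trend removed Rbfox2 was -0.14, Rbfox3 was -0.20 and Celf4 was -0.11, and with the exon length trend removed Rbfox2 was -0.11 and Rbfox3 was -0.071. Removing a trend subtracts what genes of that length did on average, and under gene length Rbfox1 was -0.60 (FDR = 0.0910, edgeR). With the covariate Rbfox1 was 0.0023. The cause of the other changes was not tested.

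The number of the 72 other regulators called higher, 1, was 3 with the likelihood ratio test and 3 with the exact test. It was 4 with DESeq2 (and 1 lower) and 4 with limma voom. Of all tested genes, 11.2%, 11.0%, 10.2% and 15.3% were called higher in these fits, in the same order, and 5.53% lower with DESeq2. Without shNT replicate 2 and shRNA replicate 4 the number was 2, where 4.75% of all tested genes were called higher. Without each sample in turn it ran from 0 to 2, and the share of all tested genes from 0% to 6.68%. It was 0 with library size only, upper quartile scaling, filterByExpr, the replicate block, YTa31 alone, either length trend removed or the covariate. Of these only the replicate block called any gene, at 0.192% of all tested genes. Of the ratios under an alternative, 90 kept their direction and side, 5 changed sign and 1 moved by more than the spread between samples. Rbfox1 to Rbfox3 was -0.098 within YTa31, Rbfox2 to Rbfox3 was -0.070 without shNT replicate 2 and shRNA replicate 4 and from -0.013 to 0.13 without each sample in turn, and Elavl2 to Elavl3 was from -0.042 to 0.19. Same-numbered samples had deviations correlated from -0.64 to 0.49, over 0.1 in 1 of 4 pairs, which cannot show whether they share more than a number. With the replicate block 0 of the 10 genes were called.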
